A study of Mus musculus with 9 samples.

Results

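Cultured mesenchyme of the embryonic mouse gut was compared between treatment with Indian hedgehog (Ihh) and with Vehicle, over all measured genes and with attention to functions other than the hedgehog pathway, cytokines and smooth muscle. The comparison used 6 of the 9 arrays of the study, 3 with Ihh and 3 with Vehicle, chosen by their titles, and 18193 genes. The other 3 arrays, of tissue treated with Sonic hedgehog (Shh), entered the estimate of the spread and are set beside Ihh where stated. All arrays were of small intestinal mesenchyme from C57Bl/6J embryos at E18.5, separated from the epithelium, grown on collagen for 48 h, and exposed to Ihh, Shh or Vehicle for 24 h. The 6 wells of a treatment were combined at random into 3 pools, so p-values measure the spread between pools and not between embryos. The sources used here give neither the ligand dose nor what the Vehicle contained. The question the design poses is which genes of this tissue respond to a hedgehog ligand.

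Ihh is secreted by the gut epithelium and received by the mesenchyme beneath it, where binding to the receptor Patched releases Smoothened and activates the GLI transcription factors. The mesenchyme holds fibroblasts and muscle precursors, and as isolated here it also contains blood vessels, neurons and resident phagocytes. Phagocytes in a culture sense microbial products and damage through surface receptors, and then make cytokines, oxidants, proteases and metabolites such as itaconate. A bulk array sums all of these cells, so fewer cells of a type and less RNA per cell cannot be told apart.

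The labelled tissue was present: 16 of 16 measured mesenchyme and fibroblast markers had mean levels above the array medians, and the mean level of that list was 10.25 to 10.37 on the Ihh arrays and 10.28 to 10.39 on the Vehicle arrays, all on the log2 scale. Levels throughout are log2 values per array, and differences are Ihh minus Vehicle on that scale, so that 1 unit is a doubling. Ptch1, which encodes the Patched receptor and is induced by the pathway, was 10.57, 10.49 and 10.98 with Ihh and 9.25, 9.11 and 9.06 with Vehicle, a rise of 1.54 ± 0.16 (SE, adjusted p = 0.00144). Gli1, a GLI factor induced by the pathway, was 6.34, 6.03 and 6.27 against 5.24, 5.44 and 5.01 and did not pass the test (adjusted p = 0.0827). Across genes, which are not independent replicates, pairs of the 6 arrays correlated at 0.993 to 0.998, and array medians lay between 5.87 and 5.92. Several features differed between arrays of the same treatment. The epithelial marker Cdh1 was 7.98, 7.62 and 6.38 with Ihh and 8.28, 6.66 and 4.71 with Vehicle. Xist, a transcript of female cells, was 10.04 to 10.66 with Ihh and 10.83, 6.34 and 6.48 with Vehicle, while the Y-linked Eif2s3y was 7.54 to 8.51 with Ihh and 6.24, 8.66 and 8.98 with Vehicle, so the pools differed in the sex of their embryos. Of the called genes 5 lay on the X chromosome, 4.24% against 3.39% of all genes, and 0 on the Y, and the part of embryo sex in the other results was not tested. As a sign of RNA quality, Gapdh signal from the 3' end minus that from the 5' end was -0.19 to -0.04 with Ihh and -0.08 to 0.03 with Vehicle.

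Genes that fell with Ihh outnumbered those that rose, and the falls were larger. A gene was called when its adjusted p was under 0.05 over all 18193 genes, and 118 genes were called, 0.649% of those tested. At an unadjusted p under 0.05 there were 1672 of the 18193 genes in either direction. List counts at that unadjusted threshold below are to be read beside this number, and list counts of calls beside the 0.649%. The gene lists were chosen with earlier results of these data known, so their counts are descriptions only. Some genes belong to several lists and are counted in each. Of the 118 called genes, 35 were higher with Ihh (0.192%) and 83 were lower (0.456%), and 6 of the rises and 34 of the falls were at least 2-fold. In all 118 the Ihh and Vehicle arrays did not overlap, which was also the case for 13.8% of all genes. The hedgehog, cytokine and smooth muscle lists accounted for 20 of the calls. Of these, 16 were falls in the cytokine list, which also holds receptors and the acute-phase gene Saa3. Beyond all these lists 98 genes were called, among them Ebi3, a cytokine subunit gene that the list used does not hold. Of the 98, 31 were higher with a median difference of 0.56 and 67 lower with a median of -0.82, where the median over all genes was -0.01. Called genes that fell had a median Vehicle level of 8.22 and those that rose 7.19, against 6.83 over all genes. In 16 of the 83 falls the Ihh mean lay below every array median, where array values are compressed, so the sizes of these falls may be understated. Left out in turn, each of the 6 arrays changed the count by more than 1.5 times: 229 genes were called without Vehicle 3 and 53 to 68 without any of the other 5. Of the 118 calls 46 held whichever array was left out, and the arrays that ended a named call are given beside it.

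**Figure D1:**
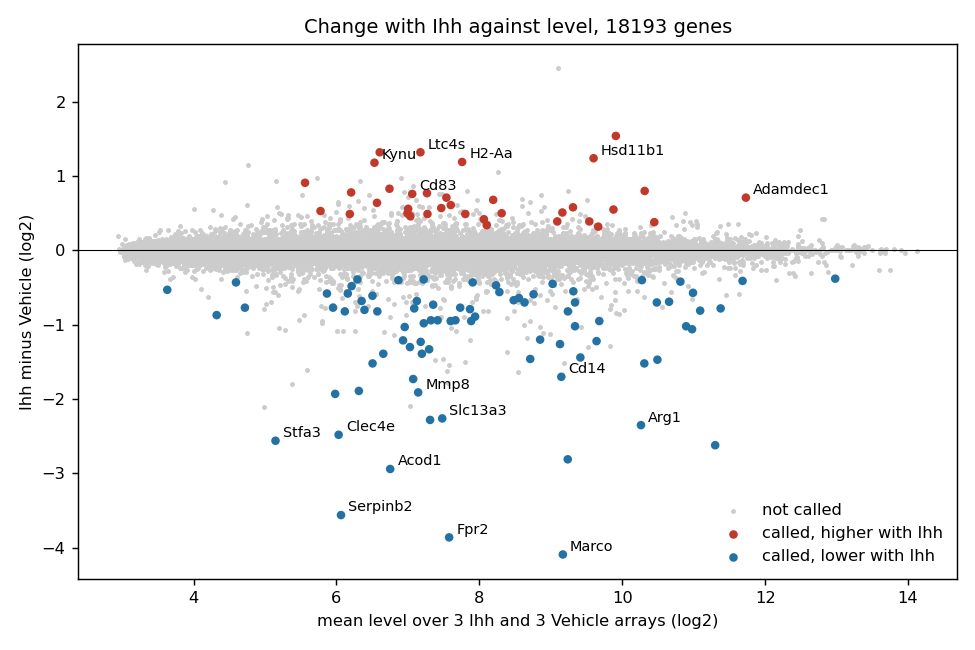
The difference between Ihh and Vehicle (log2, vertical axis) is plotted against the mean level over the 6 arrays (log2, horizontal axis), with 1 point for each of 18193 genes. Called genes are coloured, 35 higher in red and 83 lower in blue, and the falls reach -4.09 (Marco) whereas the named rises reach 1.54.

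The 2 largest falls were in Marco and Fpr2, surface receptors with which phagocytes take up or detect microbes. Marco, a scavenger receptor that binds bacteria and particles, was 7.12, 6.68 and 7.57 on the Ihh arrays and 11.15, 11.16 and 11.33 on the Vehicle arrays. Every Ihh array lay more than 3 units below every Vehicle array, and the fall was 4.09 ± 0.18 on the log2 scale (SE, adjusted p = 5.5e-06), or 17-fold. Fpr2, a receptor for formylated bacterial peptides, was 5.81, 5.73 and 5.40 against 9.77, 9.65 and 9.10 and fell 14.5-fold (adjusted p = 1.22e-05). Gpr84, a receptor for medium-chain fatty acids, was 5.32, 5.14 and 5.65 against 7.36, 7.01 and 7.40 and was 3.71-fold lower (adjusted p = 0.000123). These 3 genes kept their calls without any 1 array. C5ar1, the receptor for the complement fragment C5a, fell by 0.56 ± 0.08 (adjusted p = 0.011), and the call was lost without Ihh 1, Ihh 2 or Vehicle 2 (adjusted p up to 0.0721). Of 25 chemoattractant and purinergic receptors measured, Fpr2, Gpr84 and C5ar1 were called lower and 0 higher, with a list median of -0.09. The 28 scavenger and phagocytic receptors had a median of 0.02, and Marco was the 1 member called lower. In the same list Timd4, a receptor for phosphatidylserine on dying cells, rose from 7.23, 7.33 and 6.99 to 7.82, 7.90 and 7.96 (difference 0.71 ± 0.12, adjusted p = 0.0323). Gas6, a secreted protein that links phosphatidylserine to receptor kinases of phagocytes, rose by 0.50 ± 0.09 (adjusted p = 0.0463). The call of Gas6 ended without any 1 of the 6 arrays (adjusted p up to 0.19), and that of Timd4 ended without any but Vehicle 3 (up to 0.137).

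The falls in C-type lectins, which recognise sugars and lipids of microbes, were in 4 of 18 measured members, with 0 rises and a list median of -0.04. Clec4e (Mincle), which detects mycobacterial glycolipid, was 4.70, 4.81 and 4.86 with Ihh and 7.34, 6.85 and 7.62 with Vehicle, a 5.59-fold fall (adjusted p = 0.000532). Clec4d, its partner in the same receptor complex, was 9.69, 9.28 and 9.68 against 10.96, 10.96 and 11.28, a 2.86-fold fall (adjusted p = 0.000532). Both kept their calls without any 1 array. Clec4a2, an inhibitory lectin, fell by 1.23 ± 0.17 (adjusted p = 0.011), and the call was lost without Ihh 1, Vehicle 1 or Vehicle 2 (up to 0.0591). Clec4n (Dectin-2), a receptor for fungal mannan, fell by 0.69 ± 0.13 (adjusted p = 0.0463, and 0.0631 with the replicate number as a block), and its call ended without any 1 array but Vehicle 3 (up to 0.192).

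Among 28 pattern recognition receptors and their adaptors, 3 fell and 0 rose, and 26 of the 28 had a difference below 0 (list median -0.16). Cd14, the co-receptor for bacterial lipopolysaccharide, was 8.43, 8.22 and 8.24 against 9.88, 9.87 and 10.24, a 3.25-fold fall (adjusted p = 9.02e-05). Tlr2, which detects bacterial lipoproteins, was 6.58, 6.39 and 6.53 against 8.0, 7.75 and 7.92, a 2.62-fold fall (adjusted p = 4.72e-05). The groups were separated by more than 1 unit in both genes. Irak3, an inhibitor of Toll-like receptor signalling, fell as well, by 1.33 ± 0.15 (adjusted p = 0.00334), so the members that fell include a brake on the pathway. All 3 calls held without any 1 array, and 6 members of the list were called lower without Vehicle 3.

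Paired receptors of phagocytes, which set the threshold for activation, fell in 4 of the 24 Fc and related receptors measured (list median -0.15), or in 3 with the replicate block, under which Cd300lf was not called (adjusted p = 0.0574). Pilra, an inhibitory receptor, was 6.15, 6.40 and 6.59 with Ihh and 7.62, 7.76 and 7.65 with Vehicle, a fall of 1.30 ± 0.13 (adjusted p = 0.00144). Its activating counterpart Pilrb1 fell by 0.89 ± 0.12 (adjusted p = 0.00748). Both calls held without any 1 array. Pirb, an inhibitory receptor for MHC class I, fell by 0.94 ± 0.14 (adjusted p = 0.0143), and the call was lost without Ihh 1, Ihh 3, Vehicle 1 or Vehicle 2 (up to 0.0853). Inhibitory and activating members therefore both fell, and the inhibitory Cd300a was called in the other direction (1.41-fold higher, adjusted p = 0.0374, and 0.0613 with the replicate block), although another probe set of that gene had the opposite sign. The call of Cd300a ended without any 1 array but Vehicle 3 (up to 0.124). The complement list had 4 falls among 22 genes with a median of 0.02, and its falls Itgam and C5ar1 are also counted in other lists. Cfb, factor B of the alternative pathway, was 5.79, 5.98 and 5.47 against 7.83, 7.40 and 6.56, and its 2.86-fold fall (adjusted p = 0.0359) ended without any 1 array but Vehicle 3 (up to 0.154). Cfp, properdin, which stabilises the alternative pathway convertase, fell by 0.59 ± 0.08 (adjusted p = 0.00742). Its other probe set differed by 0.13 in the opposite direction.

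The list of granule genes and of the phagocyte oxidase, which makes superoxide, had 7 falls among 26 measured genes, with 0 rises and a median of -0.20. Stfa3, a cysteine protease inhibitor of the stefin family, was 4.0, 3.79 and 3.81 with Ihh and 6.86, 5.57 and 6.85 with Vehicle, a 5.9-fold fall (adjusted p = 0.00265). The Ihh values lie in the compressed low range, and Vehicle 2 was more than 1 unit below the other Vehicle arrays. Cybb, the catalytic oxidase subunit, was 9.18, 9.18 and 9.24 against 10.16, 10.12 and 10.19 (difference -0.95 ± 0.07, adjusted p = 0.000175). Ncf4, a cytosolic subunit of the same enzyme, was 7.23, 7.34 and 7.47 against 8.14, 8.12 and 8.09 (difference -0.77 ± 0.07, adjusted p = 0.000478). The Vehicle arrays of these oxidase genes lay within 0.1 of each other, and the calls of Stfa3, Cybb and Ncf4 held without any 1 array. Slc11a1, a metal transporter of the phagosome, fell by 0.82 ± 0.12 (adjusted p = 0.0148) and lost its call without Ihh 1, Ihh 2 or Vehicle 2 (up to 0.0909). Lcn2, which withholds iron from bacteria by binding their siderophores, was 8.48, 8.84 and 8.76 against 9.89, 9.98 and 10.53, a 2.72-fold fall (adjusted p = 0.0278, and 0.0704 with the replicate block) that ended without any 1 array but Vehicle 3 (up to 0.105). Lyz2, lysozyme, differed by -0.38 ± 0.06 at a level near 13 (adjusted p = 0.026), and the call was lost without Ihh 2, Ihh 3, Vehicle 1 or Vehicle 2 (up to 0.131).

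**Figure D2:**
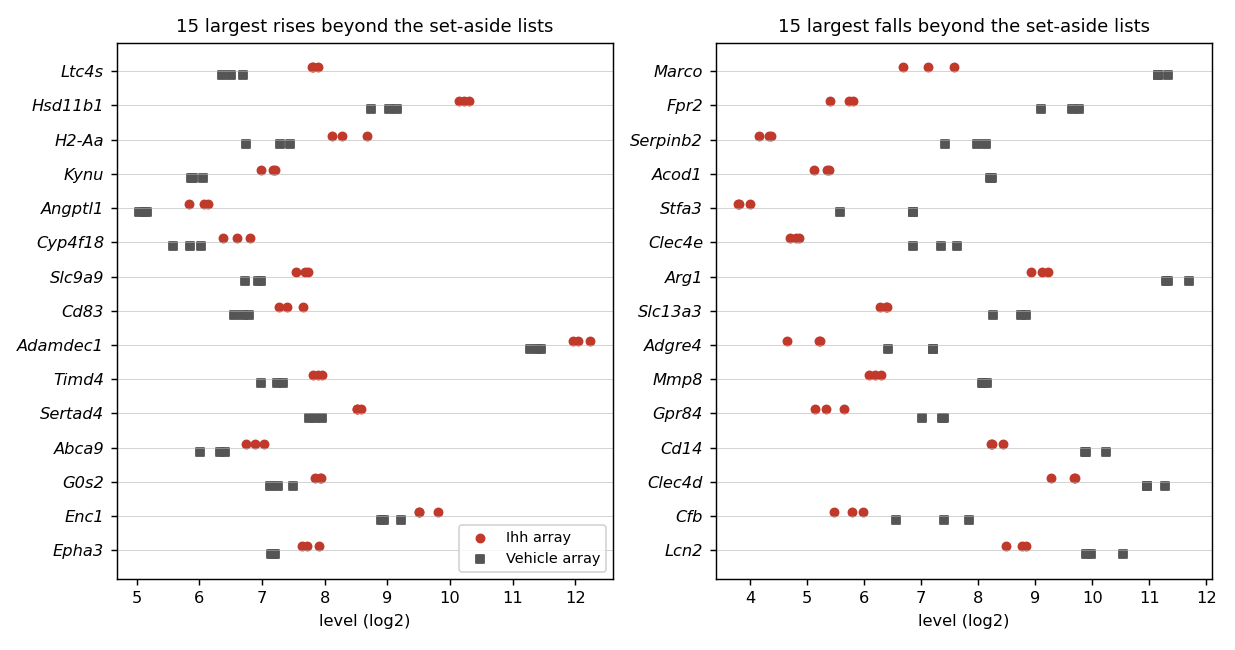
Levels (log2, horizontal axis) on the 3 Ihh arrays (red circles) and the 3 Vehicle arrays (grey squares) are shown for the 15 largest called rises (left) and the 15 largest called falls (right) outside the hedgehog, cytokine and smooth muscle lists. In each gene the 2 groups do not overlap, which the requirement of non-overlap for naming fixes, and the gaps on the right reach those of Marco and Fpr2.

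Secreted and cytosolic proteins that act on proteases fell beside these. Serpinb2, an inhibitor of plasminogen activators that activated macrophages make in quantity, was 4.33, 4.37 and 4.15 with Ihh and 8.14, 7.41 and 7.98 with Vehicle, an 11.8-fold fall (adjusted p = 1.49e-05). Mmp8, neutrophil collagenase, was 6.18, 6.08 and 6.30 against 8.08, 8.06 and 8.16, a 3.76-fold fall (adjusted p = 5.58e-06). Both genes showed little spread within a treatment next to the gap between treatments. Serpinb8, another intracellular serpin, fell by 0.82 ± 0.10 (adjusted p = 0.00631), and these 3 calls held without any 1 array. Mmp9, a gelatinase, was 10.30, 10.28 and 10.57 against 11.30, 11.27 and 11.64 (difference -1.02 ± 0.14, adjusted p = 0.00934), and its call ended without Ihh 1 or Ihh 2 (up to 0.0635). Of 23 serpins and plasminogen activation genes 2 fell, and of 28 metalloproteases and inhibitors 2 fell and 20 had a difference below 0, with medians of -0.05 and -0.11.

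Promoters of the lower genes are shown for 3 of these falls, chosen because each has a match to a searched motif. Marco, Fpr2, Acod1 and Stfa3 had no match to any searched motif, and Adgre4 and Lcn2 also matched C/EBP. The windows are the 250 bases upstream of the annotated RefSeq start in GRCm38.p6, written 5′ to 3′ on the gene's strand, and capitals mark the matches. The Serpinb2 window printed is chr1:107511173-107511422 on the plus strand. It holds TGAATCA (AP-1 letters, whose centre base was left free in the search) from position -94 and TTGCTAAA (C/EBP) from position -202, counted from the start. RefSeq gives Serpinb2 a further start, whose window, chr1:107511260-107511509, holds the same AP-1 match from -181 and a different C/EBP match, TTCAGCAA, from -19. The Clec4e window is chr6:123289872-123290121 on the minus strand, with TTGTGCAA (C/EBP) from -66. The Mmp8 window is chr9:7558179-7558428 on the plus strand, with ACTTCCTC (the reverse strand of the PU.1 motif) from -221 and TTGCTCAA (C/EBP) from -19.
Serpinb2: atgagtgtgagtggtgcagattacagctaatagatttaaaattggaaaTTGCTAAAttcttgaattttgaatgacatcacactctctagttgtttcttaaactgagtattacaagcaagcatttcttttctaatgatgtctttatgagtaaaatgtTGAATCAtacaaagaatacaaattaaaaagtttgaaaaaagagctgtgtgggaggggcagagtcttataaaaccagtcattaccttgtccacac
Clec4e: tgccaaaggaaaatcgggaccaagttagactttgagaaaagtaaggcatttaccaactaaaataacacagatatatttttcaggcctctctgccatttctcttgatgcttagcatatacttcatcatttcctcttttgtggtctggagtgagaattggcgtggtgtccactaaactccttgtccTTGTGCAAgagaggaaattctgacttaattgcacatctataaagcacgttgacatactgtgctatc
Mmp8: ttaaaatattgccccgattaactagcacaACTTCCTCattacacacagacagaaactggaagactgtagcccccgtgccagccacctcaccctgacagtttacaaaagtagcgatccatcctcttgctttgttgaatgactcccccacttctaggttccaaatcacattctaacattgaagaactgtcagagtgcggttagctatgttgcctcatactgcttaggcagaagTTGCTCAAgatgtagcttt

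The search covered 6 motifs on both strands: GLI (GACCACCCA), PU.1 (GAGGAAGT), AP-1 (TGANTCA), C/EBP (TTGCNNAA), an interferon response element (GAAANNGAA) and kappaB. RefSeq windows were matched for 66 of the 83 lower genes, 29 of the 35 higher genes and 14452 of all 18193. Shares are of genes with a window, and a gene with several starts counted if any of its windows matched. The C/EBP letters were in 24.2% of lower, 6.9% of higher and 9.65% of all such genes. The AP-1 letters were in 19.7%, 10.3% and 6.7%, the kappaB motif in 15.2%, 10.3% and 5.34%, and the interferon element in 19.7%, 6.9% and 7.51%. The PU.1 letters were in 6.06% of lower and 2.8% of all genes with a window, and the GLI letters in 0 called genes and 0.215% of all. These shares are descriptions without a test, of motifs chosen with earlier results of these data known, and base composition moved with them. The median over genes of the GC content of their windows was 50.2% for lower, 54.4% for higher and 57.6% for all genes. Most of the largest changes with a window had no match: 5 of 12 genes with a window among the 15 largest falls and 4 of 11 among the 15 largest rises held any of the 6 motifs. The AP-1 letters accept any base at their centre, so they are a loose form of the motif. They read the same on both strands, and matches to different motifs may overlap. A match marks letters in a window and no binding was measured here.

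Enzymes of small-molecule metabolism changed in both directions. Acod1, which makes itaconate from a TCA cycle intermediate, was 5.38, 5.11 and 5.35 with Ihh and 8.23, 8.24 and 8.20 with Vehicle. The 7.68-fold fall had the smallest p of all 18193 genes (adjusted p = 4.25e-07). Arg1, arginase, which turns arginine into ornithine and urea, was 9.12, 9.22 and 8.92 against 11.70, 11.32 and 11.29, a 5.1-fold fall (adjusted p = 0.000175). Kynu, kynureninase of tryptophan breakdown, went the other way, from 6.06, 5.86 and 5.90 with Vehicle to 7.21, 7.17 and 6.99 with Ihh (2.27-fold, adjusted p = 0.00144). These were the called members among 26 genes of arginine, tryptophan and polyamine metabolism (median -0.05), and each kept its call without any 1 array. Ltc4s, the synthase of leukotriene C4, showed the largest rise outside the set-aside lists: it was 7.79, 7.82 and 7.89 with Ihh and 6.36, 6.69 and 6.50 with Vehicle, 2.5-fold (adjusted p = 5.31e-05), and held without any 1 array. Cyp4f18, a P450 that oxidises leukotriene B4, was 6.60, 6.81 and 6.37 against 5.85, 6.03 and 5.57 (adjusted p = 0.0499, and 0.0655 with the replicate block). Its call ended without any 1 of the 6 arrays (up to 0.189) and its other probe set differed by -0.03. Of 24 eicosanoid synthesis genes, 2 were called higher and 0 lower, with a median of -0.02.

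Hsd11b1, the enzyme that regenerates active glucocorticoid from its inactive form, rose from 9.03, 9.16 and 8.74 to 10.14, 10.22 and 10.30. The rise was 1.24 ± 0.16 (2.37-fold, adjusted p = 0.00852), and its call ended without Ihh 2 (0.0508). It was the 1 called member of 27 genes of glucocorticoid and steroid handling, of which 21 had a difference below 0 (median -0.04). G0s2, an inhibitor of triglyceride breakdown, rose by 0.61 ± 0.09 (adjusted p = 0.0174) and lost its call without Ihh 1, Ihh 2, Ihh 3 or Vehicle 1 (up to 0.0974). Ch25h, which makes 25-hydroxycholesterol, fell by 0.40 ± 0.07 (adjusted p = 0.0323, and 0.0601 with the replicate block), and lost its call without any 1 array but Vehicle 3 (up to 0.123). It was the only call among 25 cholesterol genes.

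Transporters and metal-handling genes changed in both directions. Slc13a3, a sodium-coupled carrier of dicarboxylates, was 6.27, 6.40 and 6.38 with Ihh and 8.83, 8.74 and 8.26 with Vehicle, a 4.78-fold fall (adjusted p = 2.15e-05) that held without any 1 array. Its other probe sets differed by -1.56, 0.11 and 0.05, so the fall was seen by 2 of its 4 probe sets. Slc7a8, a carrier of neutral amino acids, fell by 0.77 ± 0.09 (adjusted p = 0.00309) and Slc16a10, a carrier of aromatic amino acids and thyroid hormone, by 0.61 ± 0.10 (adjusted p = 0.0247, and 0.0586 with the replicate block). The call of Slc7a8 held without any 1 array, and that of Slc16a10 ended without Ihh 1, Ihh 2, Vehicle 1 or Vehicle 2 (up to 0.0929). Slc9a9, a sodium-proton exchanger of endosomes, was 7.68, 7.74 and 7.54 against 6.93, 6.98 and 6.73 and rose by 0.77 ± 0.08 (adjusted p = 0.00144), with all 4 probe sets in that direction. Slc40a1, ferroportin, the exporter of cellular iron, was 10.57, 10.68 and 10.67 against 10.23, 10.28 and 10.26 (difference 0.38 ± 0.06, adjusted p = 0.0176), and its call ended without Ihh 2, Ihh 3, Vehicle 1 or Vehicle 2 (up to 0.105). Cp, ceruloplasmin, a copper-bound ferroxidase, fell by 0.68 ± 0.12 (adjusted p = 0.046, and 0.0926 with the replicate block), and the call was lost without Ihh 1, Ihh 2, Vehicle 1 or Vehicle 2 (up to 0.182). In the list of 28 iron, copper and metallothionein genes 1 rose and 3 fell, or 1 and 1 with the replicate block, with a median of -0.21 and 11 falls at an unadjusted p under 0.05. Of the called falls, Lcn2 and Slc11a1 were already counted in the oxidase and granule list. Of 23 ABC transporters, Abca9 (difference 0.64 ± 0.11, adjusted p = 0.0359) and Abcg3 (0.50 ± 0.08, adjusted p = 0.0179) were called higher. The call of Abca9 ended without any 1 array but Vehicle 3 (up to 0.157) and that of Abcg3 without Ihh 1, Ihh 2, Ihh 3 or Vehicle 2 (up to 0.0948).

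In the MHC class II list 2 genes were called higher and 0 lower. H2-Aa, the alpha chain of an MHC class II molecule, was 8.28, 8.67 and 8.11 with Ihh and 7.29, 7.45 and 6.75 with Vehicle (2.28-fold, adjusted p = 0.0203), and its 3 other probe sets moved the same way. Cd83, a surface protein of maturing antigen-presenting cells that stabilises MHC class II, was 7.27, 7.40 and 7.65 against 6.79, 6.70 and 6.55 (1.69-fold, adjusted p = 0.0127). These are the called members among 22 MHC class II genes (median 0.04), of which 5 were called higher with the replicate block. The call of H2-Aa ended without Ihh 1, Ihh 2 or Vehicle 1 (up to 0.088) and that of Cd83 without Ihh 2 or Vehicle 2 (up to 0.0652). Cd28, through which T cells are co-stimulated, belongs to another list, the lymphoid and dendritic cell markers. Of the 13 measured there 0 were called, 5 had a difference above 0 and 8 below. Cd28 was 5.01, 5.16 and 5.83 with Ihh and 4.10, 4.16 and 4.29 with Vehicle. All these values lay below every array median, where array values are compressed. Cd28 did not pass the test (adjusted p = 0.0659), but passed with the replicate block (0.00807).

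Signalling and transcription genes that respond to inflammatory stimuli fell by about 2-fold or less. Sod2, mitochondrial superoxide dismutase and a classical NF-kB target, was 10.46, 10.49 and 10.39 against 11.53, 11.44 and 11.55 (2.08-fold, adjusted p = 9.02e-05), with all 4 probe sets lower. Nfkbiz, a nuclear cofactor of NF-kB, fell by 0.70 ± 0.09 (adjusted p = 0.00934), and Ikbke, a kinase of the interferon and NF-kB pathways, by 0.79 ± 0.10 (adjusted p = 0.00748). The 3 calls held without any 1 array. They were the called members of 30 NF-kB feedback and target genes, of which 23 had a difference below 0 and 15 were lower at an unadjusted p under 0.05 (median -0.20). Cebpb, a transcription factor of myeloid activation, was 10.79, 10.75 and 10.57 against 11.24, 11.37 and 11.22 (difference -0.57 ± 0.09, adjusted p = 0.0225), and the call was lost without any 1 array but Vehicle 3 (up to 0.116). Rnf19b, a ubiquitin ligase, fell by 0.43 ± 0.07 (adjusted p = 0.0225) and lost its call without any 1 array but Vehicle 3 (up to 0.105). Bst1, an ectoenzyme that uses NAD, was 3.78 to 3.95 against 4.54 to 4.99, low on all arrays, and its fall (adjusted p = 0.0309) ended without any 1 array but Vehicle 3 (up to 0.124).

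Leukocyte integrins fell together with these genes: Itgam, Itgal and Itgb2 of the beta-2 family and Itga5, a fibronectin receptor subunit of many cell types, were the 4 calls among 38 adhesion genes (median -0.03). Itgam, the alpha chain of complement receptor 3, was 6.71, 6.78 and 6.70 against 7.78, 7.92 and 7.44 (difference -0.98 ± 0.11, adjusted p = 0.00233) and held without any 1 array. Itgb2, the shared beta chain, fell by 0.55 ± 0.08 (adjusted p = 0.0172), and the call was lost without Ihh 1, Ihh 2, Vehicle 1 or Vehicle 2 (up to 0.0991). Itgal, the alpha chain of LFA-1, fell by 0.94 ± 0.14 (adjusted p = 0.0157), and Itga5 by 0.70 ± 0.11 (adjusted p = 0.0218, and 0.056 with the replicate block). Both lost their calls without Ihh 1, Ihh 2, Ihh 3 or Vehicle 2 (up to 0.0868 for Itgal and 0.107 for Itga5).

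Markers of macrophages differed in both directions, and the falls above were not shared by all of them. Of 16 macrophage markers measured, 11 had a difference above 0 and 5 below (median 0.08), and the mean level of the list was 9.48 to 9.60 with Ihh and 9.36 to 9.67 with Vehicle. Csf1r, the receptor for macrophage colony-stimulating factor, was 12.35, 12.35 and 12.16 against 12.31, 12.33 and 12.04. Ptprc, the leukocyte antigen CD45, was 9.62, 9.80 and 9.57 against 9.82, 9.88 and 9.49. The groups overlapped in both genes, which did not pass the test (adjusted p = 0.935 and 0.934). Cx3cr1 had the largest difference of the 16 markers, 1.05 ± 0.20, and its groups did not overlap. It did not pass the test (adjusted p = 0.0516). Laptm5 differed by 0.34 ± 0.08, also without overlap and without passing (adjusted p = 0.118). With the replicate block 2 markers of this list were called higher and 3 lower. Within the same list Adgre1, a widely used surface marker of macrophages, was 8.81, 8.92 and 8.75 against 9.88, 10.03 and 9.64 and fell 2.03-fold (adjusted p = 0.000949), Itgam and Lyz2 fell, and Timd4 rose. Adgre4, a relative of Adgre1, was 5.22, 5.20 and 4.64 against 7.21, 7.21 and 6.41, a 3.8-fold fall (adjusted p = 0.0127) that ended without Ihh 2, Ihh 3, Vehicle 1 or Vehicle 2 (up to 0.0742). Neutrophil and mast cell markers had 0 of 12 members called by limma (2 lower at an unadjusted p under 0.05), and 8 of the 12 lay below the array medians on average.

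**Figure D3:**
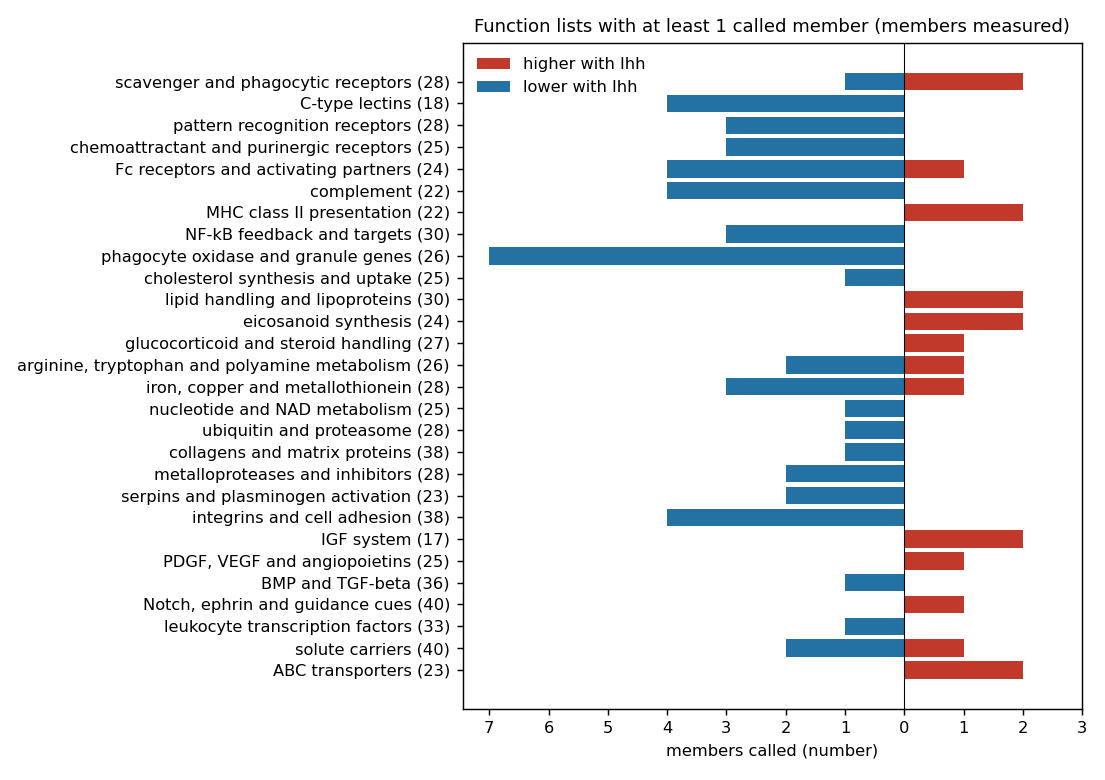
Bars give the number of called members in each function list that had any, higher with Ihh to the right and lower to the left, with the number of measured members in brackets. Phagocyte oxidase and granule genes have 7 falls of 26 measured, and MHC class II, eicosanoid, lipid, IGF and ABC transporter lists have 2 rises each and 0 falls. A gene in several lists is counted in each, such as Abca9 in the lipid and ABC transporter lists.

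Growth factor, guidance and cytoskeletal genes gave rises of under 1 unit. Angptl1, a secreted angiopoietin-like protein, was 6.08, 6.13 and 5.83 against 5.16, 5.04 and 5.12 (1.88-fold, adjusted p = 0.0365), and its call ended without any 1 of the 6 arrays (up to 0.166). Adamdec1, a metalloprotease-like protein known from the gut, was 11.96, 12.05 and 12.24 against 11.40, 11.46 and 11.27, a rise of 0.71 ± 0.09 from an already high level (adjusted p = 0.00703) that held without any 1 array. Igf1, insulin-like growth factor 1, which the set-aside hedgehog list also holds, was 10.51, 10.78 and 10.84 against 9.80, 9.91 and 10.04 (1.74-fold, adjusted p = 0.0126), and Irs1, a docking protein of its receptor, rose by 0.32 ± 0.06 (adjusted p = 0.0499, and 0.0594 with the replicate block). These were the called members of 17 genes of the IGF system (median -0.02). The call of Igf1 ended without Ihh 2, Ihh 3, Vehicle 1 or Vehicle 2 (up to 0.0792) and that of Irs1 without any 1 array but Vehicle 3 (up to 0.208). Epha3, a receptor for ephrins, rose by 0.57 ± 0.08 (adjusted p = 0.0127) and was the only call among 40 Notch, ephrin and guidance genes. Enc1, an actin-binding protein, rose by 0.58 ± 0.11 (adjusted p = 0.0499), and Sertad4 by 0.68 ± 0.11 (adjusted p = 0.0293, and 0.0631 with the replicate block). The call of Epha3 ended without Ihh 2, Vehicle 1 or Vehicle 2 (up to 0.0663), and those of Enc1 and Sertad4 without any 1 array but Vehicle 3 (up to 0.197 and 0.138).

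The BMP and TGF-beta list and the list of collagens and matrix proteins had 1 call each. These were 2.78% and 2.63% of the measured members, against 0.649% over all genes. Grem1, a secreted BMP antagonist, was 10.09, 10.07 and 10.07 with Ihh and 10.38, 10.52 and 10.52 with Vehicle, a fall of 0.40 ± 0.07 (adjusted p = 0.0359, and 0.0642 with the replicate block), the only call among 36 BMP and TGF-beta genes (median -0.02). Thbs1, thrombospondin 1, a matrix protein that activates latent TGF-beta, fell by 0.41 ± 0.07 (adjusted p = 0.0429, and 0.0703 with the replicate block), the only call among 38 collagens and matrix proteins (median -0.05). The calls of Grem1 and Thbs1 ended without any 1 of the 6 arrays (up to 0.164 and 0.179). Fgf7, a fibroblast growth factor that acts on epithelium, was 8.78, 8.87 and 8.92 against 9.57, 9.53 and 9.90 and did not pass the test (adjusted p = 0.0735). Nor did Wnt5a (adjusted p = 0.13), Rbp4, a retinol carrier (0.0535), or Dpt, a matrix protein (0.0876). Each of these 4 genes was named for the smallest p in its list. Their arrays did not overlap between the 2 groups, which was also the case for 13.8% of all genes.

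Of the 98 calls beyond the set-aside lists, 36 belonged to no list, and the following were chosen after their values were seen. Glrx, glutaredoxin, a thiol oxidoreductase, was 8.45, 8.55 and 8.49 against 9.68, 9.85 and 9.75, a 2.4-fold fall (adjusted p = 2.49e-05). Aoah, which removes acyl chains from lipopolysaccharide and so inactivates it, was 6.46, 6.54 and 6.32 against 7.65, 7.57 and 7.19, a 2.04-fold fall (adjusted p = 0.00334). Hcls1, a cortactin-like adaptor of blood cells, fell 1.92-fold (adjusted p = 0.00362). Among rises, Npl, an enzyme that breaks down sialic acid, was 10.19, 10.11 and 10.15 against 9.64, 9.68 and 9.49 (1.46-fold, adjusted p = 0.00908). These 4 calls held without any 1 array. Agt, angiotensinogen, rose 1.4-fold (adjusted p = 0.0269, and 0.0553 with the replicate block) and Npr3, the clearance receptor for natriuretic peptides, 1.31-fold (adjusted p = 0.0309). The call of Agt ended without Ihh 1, Ihh 3, Vehicle 1 or Vehicle 2 (up to 0.124), and that of Npr3 without any 1 array but Vehicle 1 (up to 0.149).

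Interferon-stimulated genes, which encode antiviral proteins, had 0 of 35 members called by limma, although 34 of 35 had a difference below 0, 28 were lower at an unadjusted p under 0.05 and the list median was -0.89. By array, and relative to each gene's Vehicle mean, the list averaged -0.96, -0.64 and -1.27 on the Ihh arrays, 0.38 and 0.40 on Vehicle 1 and 2, and -0.78 on Vehicle 3. Vehicle 3 was the lowest Vehicle array in 34 of the 35 genes, and the Ihh and Vehicle ranges overlapped in 26. The Ihh arrays all lay below Vehicle 1 and 2 in 34. Isg20, an antiviral exonuclease and the member with the smallest p, was 5.93, 6.24 and 6.01 against 7.09, 6.96 and 6.39 (adjusted p = 0.0965). Without Vehicle 3, 30 of the 35 were called lower, and 20 were with array weights, a limma option that gives less weight to arrays that stand apart. MHC class I presentation genes, many of which interferon also induces, had 0 of 19 called by limma (6 lower at an unadjusted p under 0.05) and 5 lower without Vehicle 3. Vehicle 3 was also the lowest Vehicle array in 35 and the highest in 20 of the 67 falls beyond the set-aside lists. It had the lowest mean level of the 15 epithelium markers (5.72, against 7.21 and 6.42 on Vehicle 1 and 2 and 6.07 to 7.13 with Ihh). The part of that difference in the interferon genes was not tested.

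**Figure D4:**
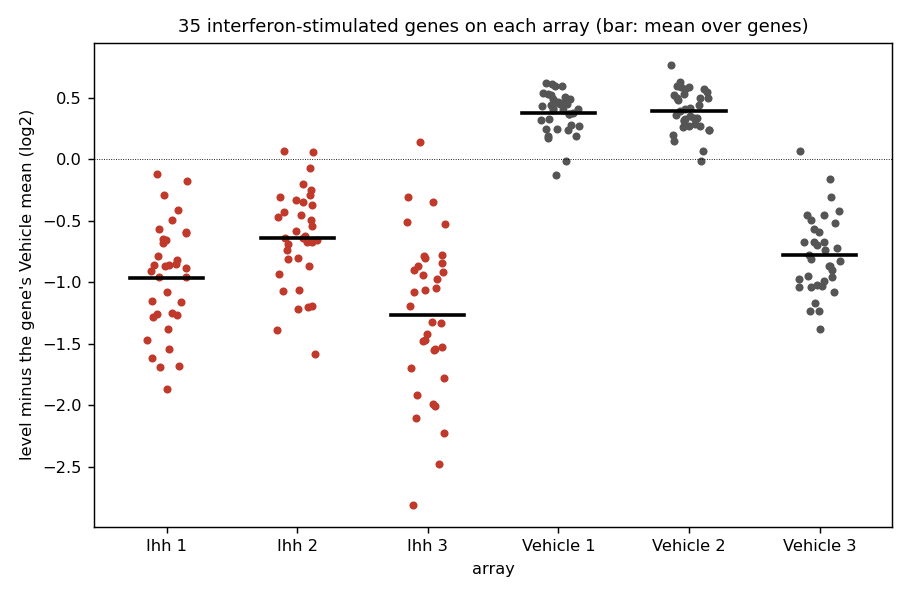
Each point is 1 of 35 interferon-stimulated genes on 1 array, as its level minus that gene's mean over the Vehicle arrays (log2), and bars are means over genes. Vehicle 3 averages -0.78, between the Ihh arrays (-1.27 to -0.64) and apart from Vehicle 1 and 2 (0.38 and 0.40).

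Many function lists held no call. The called share over all genes was 0.649%, so 0 calls in a list of this size says little about its function. Of the 50 function lists, 22 had 0 members called by limma, and with the replicate block the glycolysis and p53 lists among them had 1 call each, both lower. No member of the cell cycle (36 measured), ribosome and translation (26), TCA cycle and respiratory chain (32) or fatty acid oxidation (24) lists differed even at an unadjusted p under 0.05, and their medians were 0.03, 0.02, 0.05 and 0.02. Glycolysis and hypoxia genes had 0 of 33 called, but 31 had a difference below 0 and 12 were lower at an unadjusted p under 0.05 (median -0.16). Their member with the smallest p was Slc16a3, a lactate exporter, at 5.66, 5.36 and 5.46 against 6.10, 6.15 and 5.78 (adjusted p = 0.0881). Immediate early factors had 0 of 29 called and 9 lower at an unadjusted p under 0.05 (median -0.14), with Fos at 10.16, 10.04 and 9.85 against 10.39, 10.45 and 10.33 (adjusted p = 0.0794). Endothelium markers had 0 of 15 called and 2 lower at an unadjusted p under 0.05, and all 15 had a difference below 0 (median -0.16). Epithelium markers had 0 of 15 called and 0 at an unadjusted p under 0.05, with means per array of 6.07 to 7.13 with Ihh and 5.72 to 7.21 with Vehicle. These lists differ from those of phagocyte functions in count, but no test compared the lists.

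The Shh arrays share their Vehicle arrays with the Ihh comparison, so the values of the ligands are given side by side. Marco was 8.85, 8.99 and 8.88 with Shh, above every Ihh array and below every Vehicle array, and Acod1 was 6.56, 6.31 and 6.30, again between them. Tested directly, Ihh minus Shh was -1.78 ± 0.18 for Marco (adjusted p = 0.0142) and -1.11 ± 0.09 for Acod1 (adjusted p = 0.00519), both lower with Ihh. These were the only genes called between the ligands, 0.011% of those tested. At an unadjusted p under 0.05 there were 2390 genes between the ligands, more than the 1672 between Ihh and Vehicle. In a fit of the Ihh and Shh arrays alone limma called 0 genes (adjusted p = 0.164 for Marco and 0.0948 for Acod1). The call of Acod1 held without any 1 of the Ihh and Shh arrays, and that of Marco ended without Ihh 1 (0.142), Shh 1 (0.157), Shh 2 (0.0875) or Shh 3 (0.0815). Tlr2 was 7.07, 7.15 and 6.92 with Shh and Mmp8 was 6.87, 6.78 and 6.57, both between the Ihh and Vehicle arrays, without a call between the ligands (adjusted p = 0.221 for each). Ltc4s was 7.74, 7.73 and 7.87 with Shh, a difference between ligands of 0.06 ± 0.08, and Arg1 was 8.74, 9.0 and 8.24, a difference of 0.42 ± 0.18 (Ihh minus Shh). Missing the threshold does not show that the ligands act alike, and the sources used here do not state whether the doses matched.

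**Figure D5:**
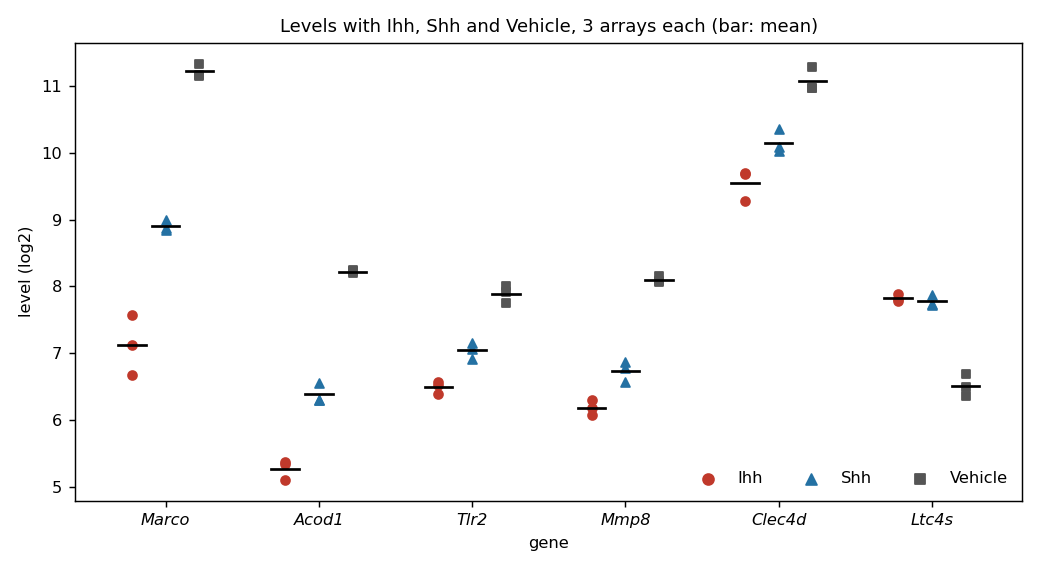
Levels (log2) of 6 genes are shown on the 3 arrays each of Ihh (red circles), Shh (blue triangles) and Vehicle (grey squares), with bars at the means. Marco, Acod1, Tlr2, Mmp8 and Clec4d are lowest with Ihh, intermediate with Shh and highest with Vehicle, whereas Ltc4s is near 7.8 with either ligand and 6.52 with Vehicle. The 6 genes were picked by hand, and only Marco and Acod1 were called between the ligands (adjusted p = 0.284 for Clec4d). Other genes that fell did not follow this order: Arg1, Irak3 and Lcn2 had lower means with Shh than with Ihh, also without a call between the ligands.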

How the data were processed

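The authors deposited 1 log2 expression value for each of 45101 Affymetrix probe sets on each of 9 arrays. They list GCOS and RMA as tools, per the submitters' processing notes, without versions. RMA corrects background and normalizes between arrays, which hides any shift common to all genes and compresses low values. The log2 scale of the deposited values was inferred from the range of 2.78 to 14.2. Pairs of arrays with identical values numbered 0.

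Of the probe sets, 34945 had 1 gene symbol in the platform annotation, 932 several and 9160 none, and 64 were controls. RefSeq held 34741 of the Entrez identifiers, and 0 symbols needed an update. Each of 18193 genes was represented by the probe set with its symbol alone that had the highest mean over the 9 arrays. Of 58 called genes with other probe sets, 47 had all of them in the same direction.

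The model, 1 mean per treatment, used lmFit and eBayes (limma 3.58.1, R 4.3.3) with the 9 arrays together (6 residual and 3.88 prior degrees of freedom). The limma p-values, for both directions, received a Benjamini-Hochberg adjustment across the whole table, separately for each comparison, and 0.05 was the threshold. The steps were tested on simulated data. The members, the gene lists and the motifs were chosen with earlier results of these data known.

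Named genes were the 15 largest called rises and falls outside the set-aside lists whose arrays do not overlap, up to 3 called genes with the smallest p per list or otherwise the member with the smallest p, and both genes called between the ligands. Others are said to be chosen after their values were seen, as were Cd300a, Vav1, Csf1r, Ptprc, Cx3cr1, Saa3, Ebi3, Cdh1, Xist and Eif2s3y.

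Same-numbered Ihh and Vehicle arrays deviated together from their group means (r = 0.35, 0.23 and 0.54 across genes). The labels describe random pooling, so this pairing comes from the data alone, and the fit with the replicate number as a block is given where it changed the call of a gene named in the text or moved a printed list count by over 1.5 times. Alternatives were other normalizations, array sets, probe set rules, filters, variance models and arrays left out.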

Additional observations from a re-analysis of the deposited data

Results flagged for a closer look

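Marco and Acod1 were called in a direct test of Ihh against Shh. The Ihh minus Shh difference was -1.78 for Marco (adjusted p = 0.0142) and -1.11 for Acod1 (adjusted p = 0.00519), where Ihh minus Vehicle was -4.09 and -2.94 and Shh minus Vehicle was -2.31 and -1.83. With the replicate number as a block both were called (adjusted p = 0.0392 and 0.0146), and in a fit of the Ihh and Shh arrays alone neither was (0.164 and 0.0948). Marco also lost its call without Ihh 1 (0.142), Shh 1 (0.157), Shh 2 (0.0875) or Shh 3 (0.0815).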

How the results depend on the processing

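The 118 calls (35 higher, 83 lower) became 498 (148 higher, 350 lower) with array weights, and 20 were higher when only the Ihh and Vehicle arrays were fitted (87 calls in all). Leaving out 1 array gave 53 to 229 calls, 10 to 31 of them higher and 43 to 198 lower. Between Ihh and Shh the 2 calls became 0 in a fit of those arrays alone and 1 to 2 with 1 array left out, an alternative chosen after seeing the data. The replicate block gave 122 calls, 97 of them shared, and among named genes changed no calls other than those printed above. Other normalizations, the filter on dim genes, the probe set rules and a trended variance gave 108 to 145. Of 100 named genes 15 lost the call when only the Ihh and Vehicle arrays were fitted, 11 when a gene's probe sets were averaged, 11 with the block, and 0 to 4 with the other settings that kept all arrays. The 100 include genes without a call in the main fit, which had none to lose, so the share lost among called genes was higher. Where tested, all 118 calls kept their sign under every alternative except Vav1, which was 0.08 (adjusted p = 0.91) without less specific probe sets. No cause of these changes was tested. The number of arrays limited the precision, and signal near background limited the falls to low levels.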
